A study of Mus musculus with 5 samples.

Results

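The genes described here are 35 genes of the interferon response and of nucleic acid sensing, followed across 5 Affymetrix arrays of mouse embryonic stem cells with and without depletion of Tet1, the dioxygenase that oxidizes 5-methylcytosine in DNA. Each gene was read from its brightest probe set by mean signal, counting those listed with exactly 1 gene symbol. Of the 35 genes, 34 had such a probe set, out of 18193 genes on the array, and the remaining gene, Isg15, has no value here because its probe set is listed with more than 1 symbol. A gene was kept where its signal exceeded the 40th percentile of the array on at least 1 array, a level near 3.03 to 3.12 on the log2 scale. This left 27 members, 23 above that level on all 5 arrays and 4 on some of them (Stat2, Dhx58, Usp18 and Rsad2), while 7 were under it on every array.

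J1 cells, an established stem cell line kept here on mouse embryonic fibroblast feeders, received a control siRNA or an siRNA against Tet1 and were collected 4 days later. E14 cells, another established stem cell line, grew without feeders and received by lentivirus a scrambled hairpin or the Tet1 hairpin shRNA3387 or shRNA2863, followed by 4 days of puromycin. Each of these 5 groups is 1 array, the line, the feeders and the reagent differ together between J1 and E14, and both hairpins are set against the same scramble array. Differences are log2 signal of a depleted array minus the control of its own line, and a difference between 2 single arrays carries no error. In bulk RNA, fewer cells of a type and less RNA per cell cannot be told apart.

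Type I interferons bind a receptor made of Ifnar1 and Ifnar2, and the signal is carried to the nucleus by ISGF3, a complex that contains Stat2 and Irf9 and binds a DNA element called the interferon-stimulated response element. The genes it switches on include RNA sensors, ubiquitin-like modifiers, antiviral effectors and parts of the antigen presentation machinery. Cytosolic sensors such as Ddx58 (RIG-I) and Ifih1 (MDA5) detect foreign RNA and start interferon production through Irf3 and Irf7. Embryonic stem cells are known for a weak interferon response and for expressing a few of these genes, the Ifitm family among them, without added interferon.

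Tet1 was lower on every array labelled as depleted, reading 10.85 and 8.31 in J1 control and Tet1 siRNA cells, and 10.95, 9.24 and 10.06 with the scramble, shRNA3387 and shRNA2863. All 12 embryonic stem cell markers were above the filter on the 5 arrays. Of 19 fibroblast markers with a probe set, 16 were kept. In the J1 control 5 of these read higher than in the feeder-free scramble cells (most of all Col1a2, at 6.24 against 3.62, and Sparc, at 10.95 against 9.32), and the others read lower. The summed linear signal of the 19 was 3689 and 3981 on the J1 arrays and 2068 to 2627 on the E14 arrays. Most of the J1 sums came from Sparc, so they do not show a difference shared by the list. The fibroblast markers Dcn, Postn and Col6a1 were under the filter on all arrays, as was the pan-leukocyte marker Ptprc. Of 9 immune cell markers with a probe set 4 were kept, 2 of them higher in the J1 control than in the scramble cells. The list's summed signal was 254 and 272 in J1 and 125 to 173 in E14. Most of the J1 sums came from 1 gene, Cd68, which read 7.47 and 7.62 in J1 and 6.57, 5.66 and 5.76 in E14.

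Of the 34 members with a probe set, 7 (20.6%) were under the filter on every array, beside 4574 of 18193 genes (25.1%), a share near that of the whole array. These 7 were the transcription factor Irf7, the sensor Ifih1, and the antiviral effectors Ifit1, Ifit3, Mx1, Mx2 and Isg20, with log2 signals between 2.01 and 3.07. The most variable of them, Irf7, read 2.6 and 2.56 in J1 control and Tet1 siRNA cells and 2.89, 2.59 and 2.62 with the scramble, shRNA3387 and shRNA2863. Ifit1, an RNA-binding antiviral protein, stayed between 2.75 and 2.79. A further 4 members passed the filter but spanned at most 0.04 over the 5 arrays: the Isg15 protease Usp18 (3.08 to 3.12), the RNA-binding Ifit2 (4.16 to 4.18), the repressor of Irf7 translation Oasl1 (3.30 to 3.34) and the peptide transporter subunit Tap1 (4.54 to 4.57). A signal this flat is hard to tell from the probe set's own background.

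**Figure D1:**
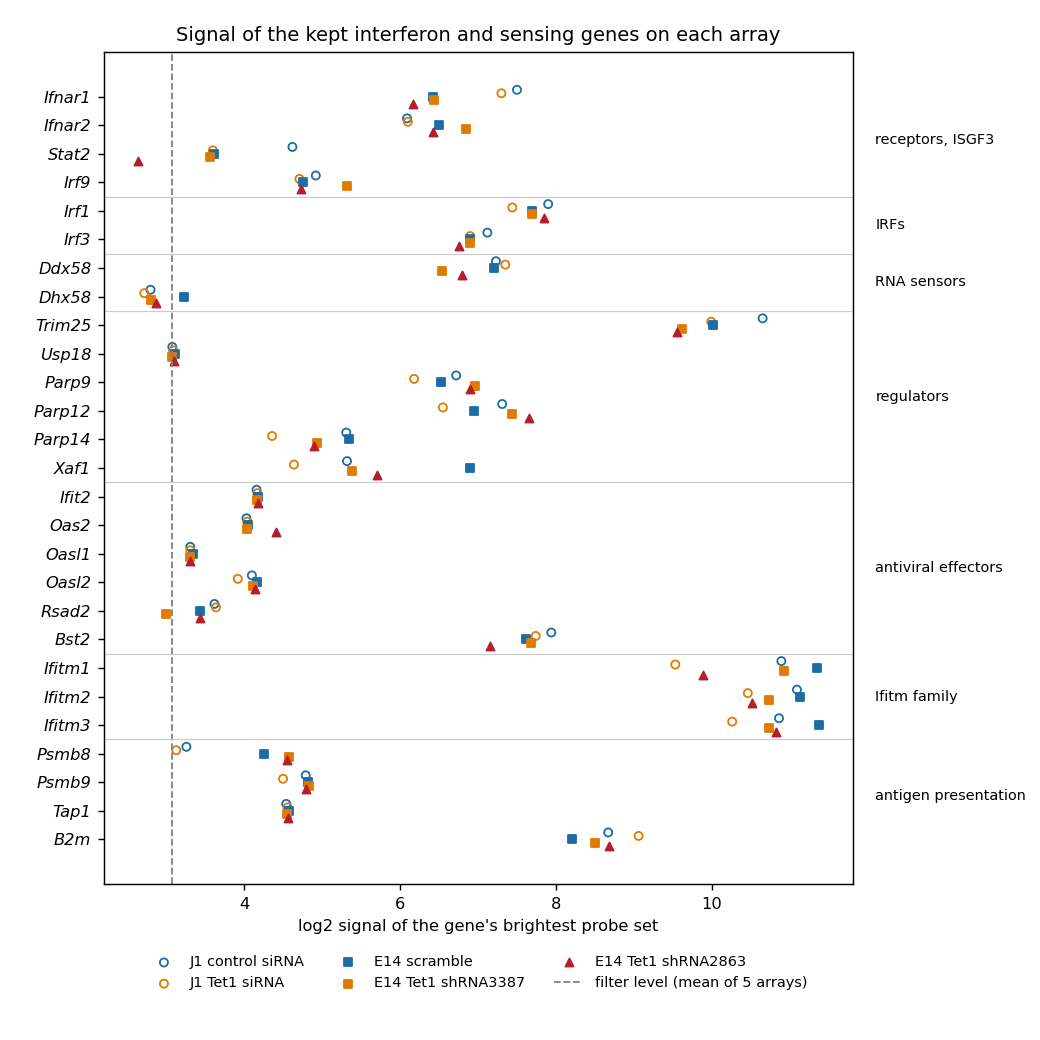
Log2 signal of the 27 kept members (rows, ordered by role) on the 5 arrays; each point is 1 array and the dashed line is the mean filter level. The 3 Ifitm genes, Trim25 and Xaf1 spread over the arrays, as do Stat2, Psmb8 and Ifnar1, while Ifit2, Oasl1, Usp18 and Tap1 show all points on top of each other. Levels of different probe sets are not on a common scale.

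With Tet1 siRNA in J1 cells, 8 of the 27 kept members were at least 1.5-fold lower and 0 were at least 1.5-fold higher, beside 6.09% of all 13619 kept genes lower and 2.91% higher. The 8 were Ifitm1, Ifitm2, Ifitm3, Stat2, Trim25, Parp12, Parp14 and Xaf1, and Ifitm1 and Stat2 were past 2-fold (1.10% of all kept genes were at least 2-fold lower). These counts use the brightest probe set of each gene. In J1, the other probe sets of Trim25 gave -0.60 and 1.02, and those of Stat2, Parp14 and Xaf1, of low signal, gave 0.02, -0.04 and 0.01. The median difference over the kept members was -0.20, beside -0.01 over all kept genes. All 12 stem cell markers also read lower on this pair of arrays, 4 of these past 1.5-fold, and the list had a median of -0.49 and a summed linear signal of 31867 in control and 24756 in depleted cells; the part of this in the members' differences was not tested. Among genes with a mean log2 signal over 6, a limit chosen after the values were seen, 5 of 13 members were at least 1.5-fold lower, beside 7.02% of 7108 genes.

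In E14 cells fewer members were past 1.5-fold. With shRNA3387, 3 of 27 were at least 1.5-fold lower (Xaf1, Ddx58 and Ifitm3; 3.36% of all kept genes) and 0 higher (5.39%). With shRNA2863, 4 were lower (Ifitm1, Xaf1, Stat2 and Ifitm2; 3.26%) and Parp12 was higher (3.63%). Stat2 is counted there at a signal under the filter level. At the 2-fold threshold, Xaf1 was lower with shRNA3387 (0.653% of all kept genes), and Xaf1 and Ifitm1 were lower with shRNA2863 (0.609%). Median differences over the kept members were -0.02 and -0.03 for shRNA3387 and shRNA2863, beside -0.02 and -0.01 over all kept genes. Both hairpin counts rest on the same scramble array.

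**Figure D2:**
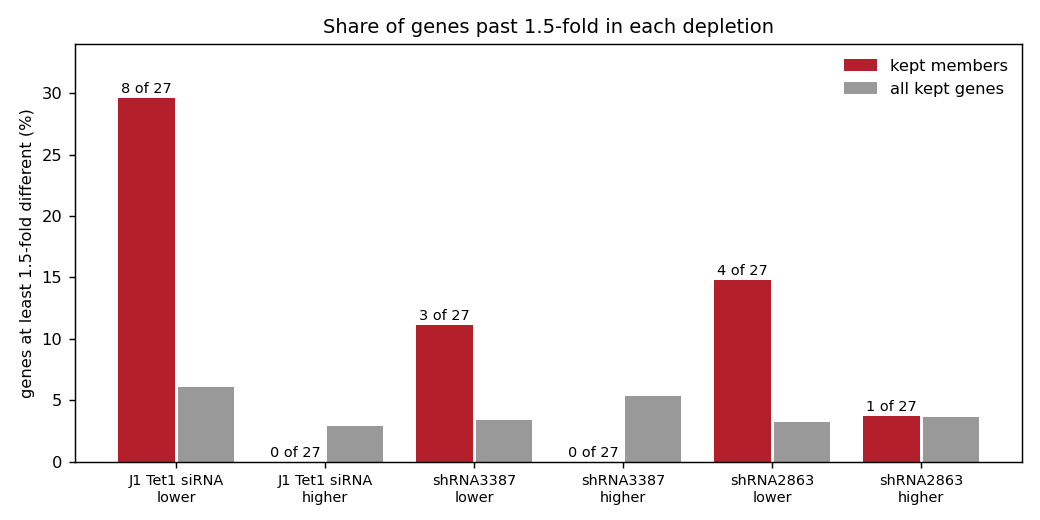
Percentage of genes at least 1.5-fold lower or higher in each depletion, for the 27 kept members (red, with counts) and for all 13619 kept genes (grey); each depletion is 1 array against 1 control array. The tallest bar is the 8 of 27 members lower in J1, beside 6.09% of all kept genes.

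The Ifitm genes encode small membrane proteins that block the entry of enveloped viruses, and Ifitm1 and Ifitm3 are also known as Fragilis-family markers of early germ cells. Ifitm1 read 10.89 in J1 control and 9.53 in J1 Tet1 siRNA cells, and 11.35, 10.93 and 9.88 with the scramble, shRNA3387 and shRNA2863 in E14. Its 3 depleted arrays were thus below the control of their own line, by 2.57-fold, 1.34-fold and 2.77-fold. The hairpins lay 1.05 apart, with shRNA2863 the lower, and Tet1 itself was lower with shRNA3387. Whether these orders are related was not tested. Over both lines Ifitm1 differed by -1.12 ± 0.37 (SE, 3 depleted and 2 control arrays; limma, unadjusted p = 0.0432, adjusted p = 0.718).

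Ifitm2 read 11.09 and 10.46 in J1 control and Tet1 siRNA cells, and 11.13, 10.73 and 10.52 with the scramble, shRNA3387 and shRNA2863. The 2 control arrays were within 0.04 of each other and above all 3 depleted arrays. Ifitm3, Stat2, Trim25 and Parp14 had the same order of arrays, and the share of all kept genes with this order is not given here. Its difference over both lines was -0.56 ± 0.09 (SE; limma unadjusted p = 0.00487, adjusted p = 0.7).

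For Ifitm3, the family member best known for restricting influenza virus, the signal was 10.86 in J1 control and 10.26 in J1 Tet1 siRNA cells, and 11.37, 10.73 and 10.82 with the scramble and the 2 hairpins. Its 3 differences were close in size at -0.60, -0.64 and -0.55. They gave -0.60 ± 0.06 (SE; limma unadjusted p = 0.000805, adjusted p = 0.7), the lowest unadjusted p among the kept members. Control and depleted arrays were separate within each line, and over both lines the J1 control at 10.86 lay just above shRNA2863 at 10.82. The difference between the E14 and J1 effects was 0.00 ± 0.11 (SE; limma adjusted p = 0.985). The 3 genes neighbour each other on chromosome 7 in the order Ifitm2, Ifitm1, Ifitm3, each has 1 probe set, and whether a probe set also reads a related gene's RNA was not tested.

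**Figure D3:**
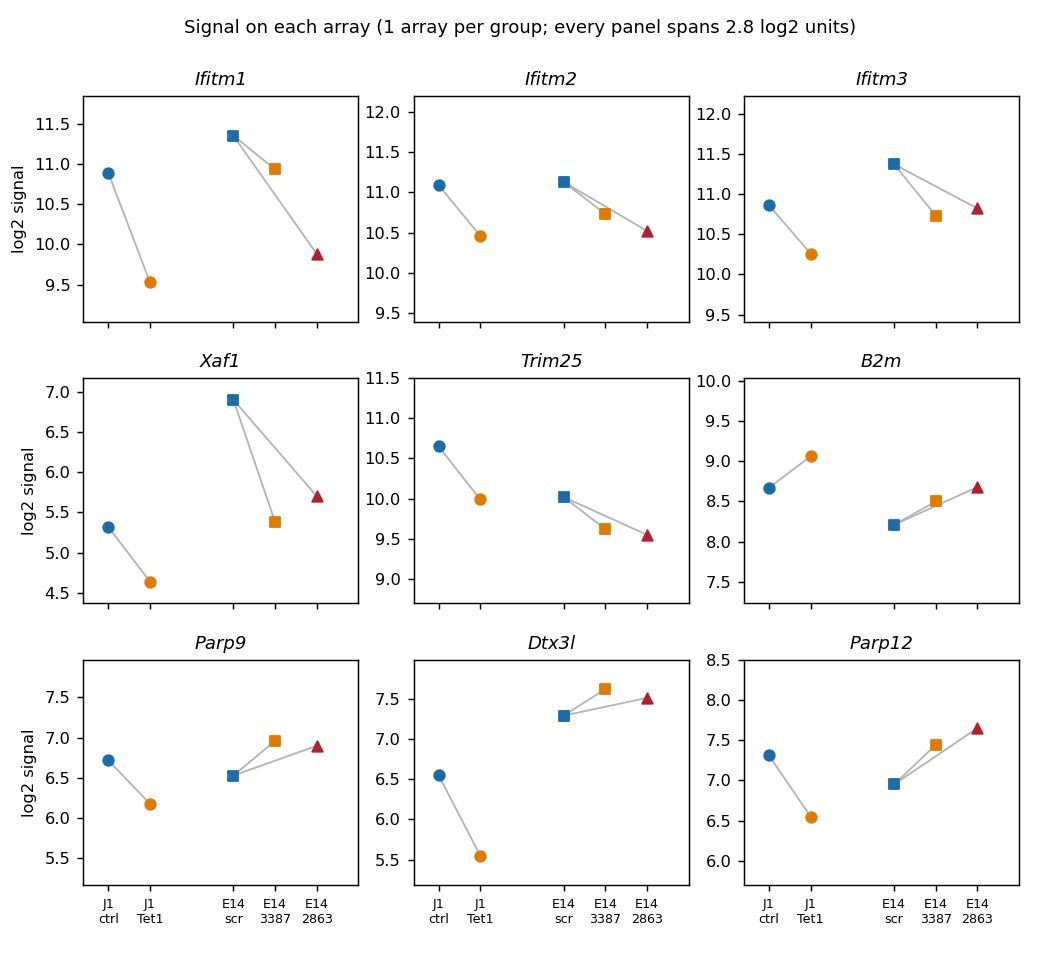
Log2 signal on each array for 8 members and for Dtx3l, the neighbour of Parp9; circles are J1, squares and triangles E14, blue controls and orange or red depletions, with grey lines joining each depletion to its control. The Ifitm genes, Xaf1 and Trim25 slope down in both lines and B2m slopes up, while Parp9, Dtx3l and Parp12 slope down in J1 and up in E14.

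The promoters of these genes were searched for the core of the interferon-stimulated response element, spelled GAAA, any 2 bases, then GAAA, and read on both strands, in windows from 250 bases before to 50 after the start of transcription (RefSeq, GRCm38.p6). Of the 35 genes, 28 had a window, and 11 of them (39.3%) held a match, beside 3.99% of 27025 genes in the same table. Among the 22 kept genes with a window, 7 held a match (Stat2, Ddx58, Rsad2, Bst2, Ifitm2, Ifitm3 and B2m), as did 3 of the 5 genes under the filter (Ifih1, Ifit1 and Ifit3). Isg15, which has no array value here, held 3 matches, some of them overlapping. The gamma-activated sequence, spelled TTC, any 3 bases, then GAA, which binds Stat dimers, occurred in 8 of the 28 genes (28.6%), beside 9.55% of all genes. A match is a description of letters in this window and not a measured site.

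Below are the 300-base windows of the 3 Ifitm genes, which were lower with each depletion, of B2m, which was higher with each, and of Ifit1, which stayed at background. Each is printed 5′ to 3′ on the strand of the gene, with matches to that response element on either strand in capitals. The windows lie at chr7:140967826-140968125 on the plus strand for Ifitm1, chr7:140955912-140956211 on the minus strand for Ifitm2, chr7:141010695-141010994 on the minus strand for Ifitm3, chr2:122147437-122147736 on the plus strand for B2m and chr19:34640639-34640938 on the plus strand for Ifit1.
Ifitm1: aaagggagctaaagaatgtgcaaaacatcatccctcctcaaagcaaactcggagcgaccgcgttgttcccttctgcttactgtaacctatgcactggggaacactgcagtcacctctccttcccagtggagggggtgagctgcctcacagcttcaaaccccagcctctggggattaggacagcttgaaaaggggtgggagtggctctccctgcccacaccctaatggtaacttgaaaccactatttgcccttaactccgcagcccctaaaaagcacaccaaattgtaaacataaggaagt
Ifitm2: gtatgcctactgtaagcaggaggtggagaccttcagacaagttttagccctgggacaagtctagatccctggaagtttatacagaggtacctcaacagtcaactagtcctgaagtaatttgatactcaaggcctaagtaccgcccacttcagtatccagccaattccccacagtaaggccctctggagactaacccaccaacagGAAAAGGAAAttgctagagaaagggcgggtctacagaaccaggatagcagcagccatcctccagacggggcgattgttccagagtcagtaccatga
Ifitm3: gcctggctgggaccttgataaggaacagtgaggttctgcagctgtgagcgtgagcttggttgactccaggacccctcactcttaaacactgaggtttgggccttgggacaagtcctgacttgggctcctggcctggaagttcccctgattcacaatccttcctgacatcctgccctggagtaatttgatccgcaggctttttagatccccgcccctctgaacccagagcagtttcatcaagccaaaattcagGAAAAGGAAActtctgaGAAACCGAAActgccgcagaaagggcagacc
B2m: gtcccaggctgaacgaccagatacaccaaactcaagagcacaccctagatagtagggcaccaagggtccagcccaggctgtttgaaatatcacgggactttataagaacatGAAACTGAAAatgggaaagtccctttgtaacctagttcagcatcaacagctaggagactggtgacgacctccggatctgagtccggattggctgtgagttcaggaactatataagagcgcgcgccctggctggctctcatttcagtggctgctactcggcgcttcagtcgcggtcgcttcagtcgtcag
Ifit1: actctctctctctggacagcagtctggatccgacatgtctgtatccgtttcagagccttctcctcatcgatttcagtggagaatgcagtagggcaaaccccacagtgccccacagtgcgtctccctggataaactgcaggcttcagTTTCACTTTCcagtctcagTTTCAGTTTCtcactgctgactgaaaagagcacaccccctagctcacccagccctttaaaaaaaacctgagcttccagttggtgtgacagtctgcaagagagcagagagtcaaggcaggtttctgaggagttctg

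Ifitm1, whose difference was the largest of the family in J1 cells and with shRNA2863, held no match in this window, Ifitm2 held 1 and Ifitm3 held 2. Ifit1 held 2 matches at a flat background signal, and B2m, whose signal differed upward, held 1. CpG density also varied among the members. The ratio of observed to expected CpG had a median of 0.55 over the 25 windows of 22 kept members. It was 0.21 over the 7 windows of 5 members under the filter, and 0.38 over all 32851 windows. Genes with several windows, such as Isg20 under the filter and Ifit2, Irf1 and Irf9 among the kept, count more than once. The Ifitm1, Ifitm2 and Ifitm3 windows were at 0.26, 0.22 and 0.24, while that of Parp12 was at 1.14.

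Receptor and ISGF3 genes gave mixed values. Ifnar1, the receptor chain that docks the kinase Tyk2, read 7.5 and 7.3 in J1 control and Tet1 siRNA cells, and 6.42, 6.43 and 6.17 with the scramble, shRNA3387 and shRNA2863. Its largest gap was between the lines, the scramble array being 2.11-fold below the J1 control. Ifnar2, the other chain, read 6.09 and 6.10 in J1 and 6.50, 6.85 and 6.42 in E14 in the same order, and no depletion was past 1.5-fold.

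Stat2, the ISGF3 subunit that supplies the activation domain, read 4.62 and 3.6 in J1 control and Tet1 siRNA cells, and 3.61, 3.56 and 2.64 with the scramble, shRNA3387 and shRNA2863. It was 2.03-fold lower in J1 and differed by -0.05 with shRNA3387. With shRNA2863 its signal was under the filter level of 3.09, and against that level it was at least 1.43-fold lower. The difference over both lines was -0.73 ± 0.34 (SE; limma adjusted p = 0.718). The other Stat2 probe set was under the filter on all arrays, between 2.07 and 2.10, so these values rest on 1 probe set of low signal. Irf9, the DNA-binding subunit of ISGF3, read 4.92 and 4.71 in J1 and 4.76, 5.32 and 4.73 in E14, with a largest difference of 0.56 for shRNA3387.

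Of the interferon regulatory factors, Irf1 and Irf3 were kept. Irf1, a factor induced by interferon gamma that drives antigen presentation genes, read 7.90 and 7.44 in J1 control and Tet1 siRNA cells and 7.69, 7.69 and 7.84 with the scramble, shRNA3387 and shRNA2863. Irf3, the factor phosphorylated after sensing of foreign nucleic acid, read 7.12 and 6.90 in J1 and 6.90, 6.90 and 6.76 in E14. Neither differed by 1.5-fold in a depletion in these probe sets. Another Irf3 probe set, above the filter on 1 array, read 3.68 and 3.04 in J1, a difference of -0.64.

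Among the RNA sensors, Ddx58 was the only one above the filter on all arrays. It read 7.23 and 7.35 in J1 control and Tet1 siRNA cells, and 7.21, 6.54 and 6.80 with the scramble, shRNA3387 and shRNA2863. Both hairpin arrays were below the scramble, by 1.59-fold and 1.33-fold, while the J1 arrays were 0.12 apart. The E14 effect was -0.54 ± 0.18 (SE; limma unadjusted p = 0.0820, adjusted p = 0.507), and its difference from the J1 effect was -0.66 ± 0.27 (SE; limma adjusted p = 0.448). The other 2 probe sets of Ddx58, of lower signal, differed by at most 0.03 in size with either hairpin, and 1 of them read 3.29 and 2.97 in J1, a difference of -0.32 and opposite in sign to that of the main probe set. Dhx58 (LGP2), a helicase that modulates both sensors, was above the filter on the scramble array alone, at 3.23, and read 2.72 to 2.87 elsewhere.

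Trim25, a ubiquitin ligase known for promoting Ddx58 signalling, read 10.65 and 9.99 in J1 control and Tet1 siRNA cells and 10.02, 9.62 and 9.55 with the scramble, shRNA3387 and shRNA2863. The differences were -0.66, -0.40 and -0.47, with -0.53 ± 0.09 over both lines (SE; limma unadjusted p = 0.00479, adjusted p = 0.7). Its second probe set gave -0.60, -0.45 and -0.47. The third went the opposite way in J1, reading 6.41 and 7.43, and differed by -0.03 and 0.38 with the hairpins, so the direction for Trim25 depends on the probe set.

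Xaf1, an interferon-inducible antagonist of the apoptosis inhibitor Xiap, had the largest difference with shRNA3387 among the kept members. It read 5.32 and 4.64 in J1 control and Tet1 siRNA cells, and 6.90, 5.38 and 5.70 with the scramble, shRNA3387 and shRNA2863. The scramble array stood highest, 2.99-fold above the J1 control, and both hairpin differences (-1.52 and -1.20) rest on it. Over both lines Xaf1 differed by -1.07 ± 0.22 (SE; limma unadjusted p = 0.00993, adjusted p = 0.7). A second Xaf1 probe set was flat, between 3.18 and 3.26 on the 5 arrays.

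Of the 3 PARP members, mono-ADP-ribosyltransferases or their relatives induced by interferon, Parp9 and Parp12 gave differences of opposite sign in the 2 lines. Parp9, which acts in a complex with the ubiquitin ligase Dtx3l, read 6.72 and 6.18 in J1 control and Tet1 siRNA cells and 6.53, 6.96 and 6.90 with the scramble, shRNA3387 and shRNA2863. It was thus lower with depletion in J1 and higher with both hairpins, and the difference of effects was 0.94 ± 0.14 (SE; limma unadjusted p = 0.0179, adjusted p = 0.344). Parp12, an enzyme with RNA-binding zinc fingers, read 7.31 and 6.55 in J1 and 6.95, 7.44 and 7.65 in E14. Its effects differed in the same way, by 1.35 ± 0.23 (SE; limma unadjusted p = 0.0225, adjusted p = 0.344).

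Parp14, a coactivator of Stat6, was below its control in each depletion. Its signal was 5.31 and 4.36 in J1 control and Tet1 siRNA cells, and 5.34, 4.93 and 4.90 with the scramble, shRNA3387 and shRNA2863. The 2 controls were within 0.03 of each other and above the 3 depleted arrays, an order whose share over all kept genes is not given here. The difference over both lines was -0.65 ± 0.15 (SE; limma unadjusted p = 0.0156, adjusted p = 0.7), and a second probe set was under the filter on all arrays.

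Dtx3l lies between Parp14 and Parp9 on chromosome 16 and was on the list of other interferon-stimulated genes. It read 6.55 and 5.55 in J1 control and Tet1 siRNA cells and 7.29, 7.62 and 7.51 in E14, so its differences of -1.0, 0.33 and 0.22 had the signs of those of Parp9. The difference of its effects was 1.28 ± 0.17 (SE; limma unadjusted p = 0.0128, adjusted p = 0.332). The second Dtx3l probe set differed by -0.06 in J1 and by 0.34 and 0.14 with the hairpins.

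**Figure D4:**
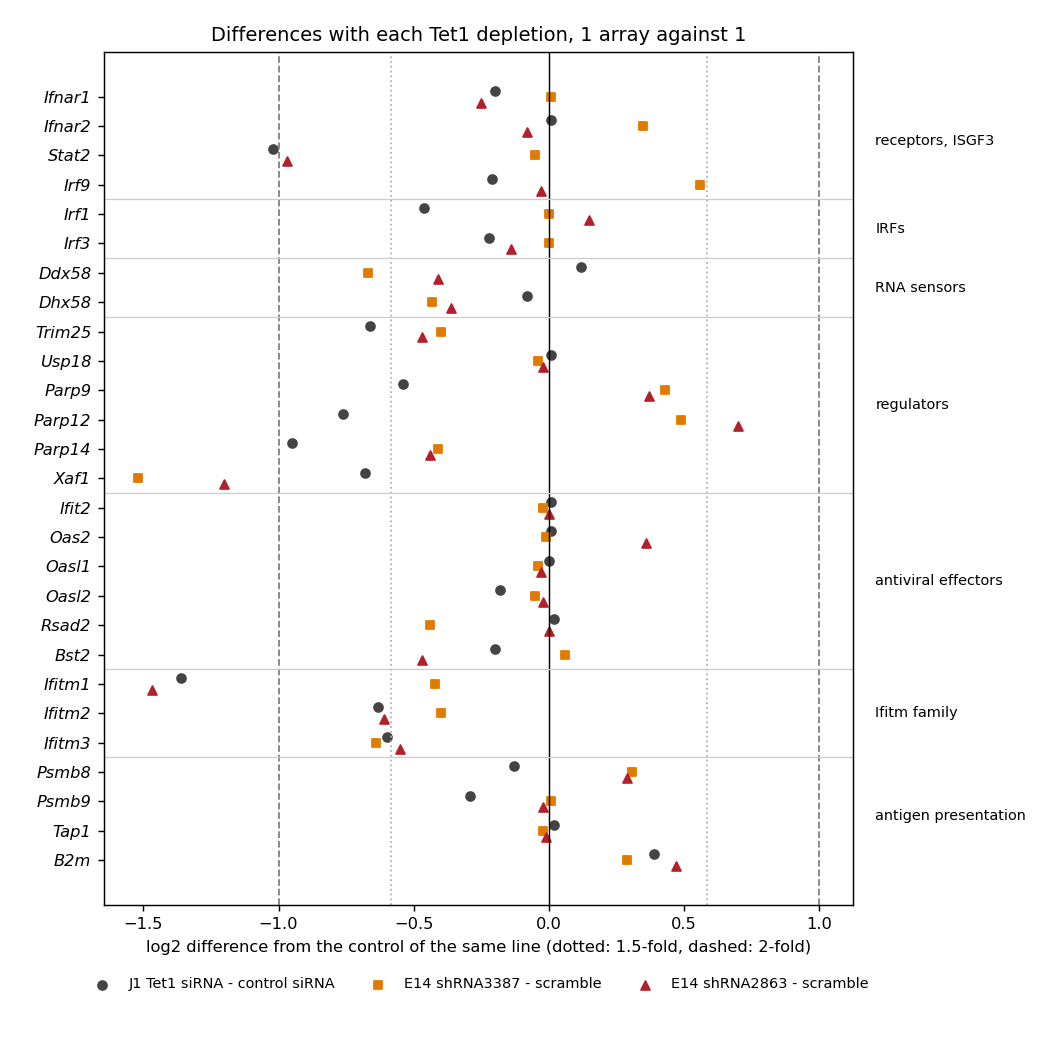
Log2 difference of each depleted array from the control array of its own line for the 27 kept members, ordered by role; dotted and dashed lines mark 1.5-fold and 2-fold. Grey J1 points lie left of 0 for 18 of 27 members, beside 6865 of 13619 kept genes, the Ifitm genes lie left of 0 in each depletion, and the points of Parp9 and Parp12 fall on opposite sides for J1 and E14.

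Antiviral effectors other than the Ifitm genes showed small differences or background signal. Bst2 (tetherin), which holds budding virus at the cell surface, read 7.94 and 7.74 in J1 control and Tet1 siRNA cells and 7.62, 7.68 and 7.15 with the scramble, shRNA3387 and shRNA2863. The shRNA2863 array was the lowest, 0.47 below the scramble. Oas2, which makes the messenger that activates RNase L, read 4.03 and 4.04 in J1 and 4.05, 4.04 and 4.41 in E14. Its relative Oasl2 stayed between 3.92 and 4.16. Rsad2 (viperin), a radical SAM enzyme, read 3.62 and 3.64 in J1 and 3.44, 3.0 and 3.44 in E14. None of these 4 effectors differed by 1.5-fold in any depletion.

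In antigen presentation, B2m read higher than its control in each depletion. B2m, the light chain of class I major histocompatibility molecules, read 8.67 and 9.06 in J1 control and Tet1 siRNA cells, and 8.21, 8.50 and 8.68 with the scramble, shRNA3387 and shRNA2863. The differences were 0.39, 0.29 and 0.47, all under 1.5-fold, and 0.44, 0.17 and 0.55 in its second probe set. Over both lines B2m differed by 0.38 ± 0.10 (SE; limma unadjusted p = 0.0214, adjusted p = 0.7). Levels of the groups met between the lines, as shRNA2863 at 8.68 lay just above the J1 control at 8.67.

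Psmb8, a catalytic subunit of the immunoproteasome, read 3.26 and 3.13 in J1 and 4.26, 4.57 and 4.55 in E14, and was thus separated by line, with the scramble array 2.0-fold above the J1 control. The J1 signals lay close to the filter levels of those arrays, 3.03 and 3.06. A second Psmb8 probe set, under the filter on all arrays, differed by 0.19 between the control arrays. Psmb9, another such subunit, read 4.79 and 4.50 in J1 and 4.82, 4.83 and 4.80 in E14. Psmb9 and Tap1 neighbour each other on chromosome 17 in opposite orientation, and their promoter windows overlap.

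Other genes of the pathway were counted from 4 further lists holding 92 genes, of which 77 had a probe set and 58 were kept. At least 1.5-fold lower were 5, 2 and 0 of the 58 with J1 siRNA, shRNA3387 and shRNA2863, beside 6.09%, 3.36% and 3.26% of all kept genes. In the same order, 0, 4 and 7 were at least 1.5-fold higher, beside 2.91%, 5.39% and 3.63%. The interferon genes Ifnb1 and Ifng were under the filter on all 5 arrays. In the brightest probe set of each gene, Dtx3l, the zinc-finger antiviral protein gene Zc3hav1 and the class I gene H2-D1 differed by 2-fold in a depletion. Other probe sets of Adar, Zcchc3, Eif2ak2 and Jak1 were also higher by 2-fold, while the brightest of these genes were not. With shRNA3387 these gave 1.38 for Adar and 1.09 for Zcchc3. In J1 they gave 1.37 for Eif2ak2 and 2.58 for Jak1, the last above the filter on 1 array. Zc3hav1, whose product targets CpG-rich viral RNA, read 7.31 and 6.92 in J1 control and Tet1 siRNA cells and 7.0, 7.84 and 8.03 with the scramble, shRNA3387 and shRNA2863, and its effects differed between the lines by 1.33 ± 0.22 (SE; limma adjusted p = 0.344). Another Zc3hav1 probe set, of lower signal but above the filter on all 5 arrays, differed by -0.01, -0.17 and -0.11. For Zc3hav1 the sign with the hairpins thus depends on the probe set. H2-D1, which pairs with B2m, read 7.22 and 7.71 in J1 and 6.56, 6.83 and 7.57 in E14, with differences of 0.49, 0.27 and 1.01. A second of the 9 H2-D1 probe sets gave 0.22, 0.21 and 0.86. Others above the filter on all arrays were flatter, with 0.02, -0.04 and 0.19 in 1 and 0.08, -0.03 and 0 in another. Class I probe sets may also read related genes, which was not tested.

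The control arrays of the lines differed by at least 1.5-fold at 5 of the 27 kept members, beside 23.1% of all kept genes. Xaf1 and Psmb8 were higher in E14, and Ifnar1, Stat2 and Trim25 were higher in J1. The Ifitm genes were not past 1.5-fold, with scramble minus J1 control differences of 0.46, 0.04 and 0.51 for Ifitm1, Ifitm2 and Ifitm3. These control arrays also enter every depletion difference above.

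No member passed a test after adjustment over all kept genes. In the limma fit over both lines, 0 of 27 members and 0 of 13619 genes had an adjusted p under 0.05, and 7 members had an unadjusted p under 0.05, beside 6.87% of all kept genes. These were Ifitm1, Ifitm2, Ifitm3, Trim25, Parp14 and Xaf1 (lower; 4.01% of all kept genes) and B2m (higher; 2.86%). For the E14 effect the counts were 0 adjusted and 7 unadjusted (11.0% of all kept genes), with Dhx58, Trim25, Parp14, Xaf1 and Ifitm3 lower and Parp9 and Psmb8 higher. For the difference of effects (E14 minus J1) they were 0 adjusted and 5 unadjusted (13.9%), negative for Dhx58 and positive for Parp9, Parp12, Parp14 and Psmb8. Dhx58 was above the filter through the scramble array alone. The lowest adjusted p among the members was 0.7, 0.364 and 0.344 in the 3 limma fits. The first fit had 2 residual degrees of freedom, and a gene's own spread there came from how the depletion differences varied. The others had 1, and the spread there came from the gap between the hairpin arrays. Limma combined each with a prior variance fitted over all kept genes. Groups of 1 array were taken to vary to the same extent.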

How the data were processed

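Total RNA of 5 samples was labelled with biotin and read on Affymetrix arrays, per the labels' protocols. The authors deposited 1 table of log2 probe set summaries; the scale was inferred from the values (1.38 to 14.12), and how probes were summarised and normalized is not given in the sources used here. Values were used as deposited. Of 45101 probe sets, 64 are array controls, 34958 carry 1 symbol and 932 several. Levels were filtered at the 40th percentile of each array without its control probes (13619 of 18193 genes kept). Two-sided tests were run with limma 3.58.1 (R 4.3.3; trended prior variance), and p-values were adjusted by the Benjamini-Hochberg method across the kept genes: a fit with line and Tet1 terms, and a fit of 4 means in which the hairpin arrays share a mean. The fits were tested on simulated data in which every gene had the same spread and all 3 depletions the same effect. That test does not cover genes whose spread or effects differ. No label names separate cultures, so p-values reflect the spread among these arrays alone, and their number limits the precision. No batch is named in the labels. Arrays correlated at 0.963 to 0.993 over kept genes. Promoter windows came from RefSeq annotation of GRCm38.p6. The naming rule covered kept members with their values. It also covered other pathway genes whose brightest probe set was past 2-fold in a depletion or 1.5-fold the same way in all 3. The members, lists and naming rule were chosen with earlier results of these data known. Alternatives covered quantile normalization, centring on medians, other filters, medians over probe sets, no trend, no line term, other thresholds, the other probe sets of each kept member, and leaving out each array.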

Additional observations from a re-analysis of the deposited data

Results flagged for a closer look

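Parp9 and Parp12 had Tet1 effects of opposite sign in the lines, lower in J1 and higher on both hairpin arrays by at least 1.2-fold each. The share of all kept genes with effects opposed in this way is not given here, so the flag does not set these members apart. The difference of effects (E14 minus J1) was 0.94 for Parp9 and 1.35 for Parp12. Limma did not call either difference (adjusted p = 0.344 for both), and the 2 hairpin effects share 1 scramble array.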

How the results depend on the processing

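Of 28 alternative values of the counts past 2-fold, 16 stayed within 1.5 times the count as reported and 12 did not. The count past 2-fold in J1, 2 as reported, was 8 at 1.5-fold, and 1 after quantile normalization, with the median over probe sets and with only genes of a mean over 6 (a limit chosen after seeing the data). For shRNA3387 it was 1 as reported, 3 at 1.5-fold, and 0 with the median over probe sets and over that mean; for shRNA2863 it was 2, then 5, 1 and 1. Between the control arrays it was 4, and 1 with the median over probe sets and over that mean. The fits called 0 members under every alternative at an adjusted p under 0.05, including each array left out (0 to 0), and 7, 7 and 5 at an unadjusted p under 0.05 for both lines, E14 and the difference. As limma called 0 of all kept genes as reported and with each array left out, these counts of 0 say nothing on stability. Without the scramble array or a J1 array, the Tet1 term rests on 1 line alone. Without shRNA2863 the estimate for Ifitm1 was -0.89. Among J1 differences past 1.5-fold, another probe set reversed Stat2 (0.02, under the filter), Trim25 (1.02) and Xaf1 (0.01, flat), and the cause was not tested; smaller J1 differences also had the opposite sign in another probe set, such as Ifnar1 (0.37), Ddx58 (-0.32) and Psmb8 (0.13, under the filter). No paired analysis was possible because each group holds 1 array. With 1 array a group, differences between single arrays have no error.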
